A study of Homo sapiens with 16 samples.

Results

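The genes examined here encode the nuclear-encoded subunits of the mitochondrial respiratory chain and ATP synthase. They were chosen by name: gene symbols of the NDUFA, NDUFB, NDUFC, NDUFS and NDUFV families, SDHA to SDHD, the UQCR family and CYC1, the COX5 to COX8 families, and the ATP5 family. The deposited tables hold 63187 genes. These patterns fitted 266 of them, and 172 of them were dropped because the symbol ends as a pseudogene's does. NDUFA4 and its relative NDUFA4L2 were set aside. Of the 92 left, 84 had an estimated count of at least 10 in at least 4 libraries and are the members described. All 84 also passed the filter on low counts of the test. Complex I has 40 members, complex II has 4, complex III has 10, complex IV has 10 and complex V has 20. Among them 75 are subunit genes, and 9 only share the name pattern: the divergent or antisense transcripts NDUFA6-DT, NDUFB2-AS1 and NDUFV2-AS1, the readthrough genes NDUFC2-KCTD14 and ATP5MF-PTCD1, the near copies UQCRHL and ATP5MGL, the ATP synthase inhibitor ATP5IF1, and COX7A2L, a factor in supercomplex assembly. Reads of near copies and readthrough genes cannot be told safely from those of their partner genes, so these values are uncertain. Just inside the count minimum, NDUFV2-AS1 reached 10 counts in 5 libraries. Just outside, COX8C reached it in 1 library, and NDUFV1-DT stayed between 2.47 and 8.97 counts.

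The respiratory chain passes electrons from NADH (complex I) and succinate (complex II) through complex III and cytochrome c to complex IV, which reduces oxygen to water. Complexes I, III and IV pump protons, and complex V uses the proton gradient to make ATP. Complex II is built from nuclear genes alone, whereas each other complex combines nuclear subunits with subunits encoded in mitochondrial DNA. HIF-2α, encoded by EPAS1, is an oxygen-regulated transcription factor. Hypoxia-inducible factors are known for raising glycolytic genes and for a few exchanges of respiratory subunits, among them COX4I2 for COX4I1 and NDUFA4L2 for NDUFA4.

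RNA-seq libraries in 4 groups of 4 came from the MYCN-amplified neuroblastoma line SK-N-BE(2). WT were cells labelled wild type. FL, NCTAD and cIDR were cells transfected with full-length HIF-2α, with the form the design text writes ΔN-CTAD, and with the form it writes Δc-IDR. All groups were grown at 21% oxygen in medium with 10% serum. The labels give neither the deleted residues nor the vector, the harvest time or any mock treatment of WT, so HIF-2α and transfection cannot be told apart in a comparison with WT. The labels give replicate numbers 1 to 4 also as batches, each with 1 library of every group. They do not say whether replicates were separate cultures, so p-values measure only the spread between these libraries, which may be technical.

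Libraries held 38.6 to 56.1 M (mega) estimated counts. Levels within a gene are given as CPM, counts per 1 M counts of the TMM-scaled library. EPAS1, the transfected gene, stood at 13.0, 28.1, 17.3 and 14.3 CPM in WT replicates 1 to 4 and between 1320 and 5852 CPM in the 12 transfected libraries, which matches the labels of WT and transfected libraries. EPAS1 ranges of FL, NCTAD and cIDR overlapped, and gene totals do not show the deleted parts, so which construct a library carried was not checked. EPAS1 averaged 2609 CPM in FL, 2851 CPM in NCTAD and 4484 CPM in cIDR. Outside batch 2, cIDR held 4078 to 5852 CPM and FL 1691 to 3580 CPM, without overlap. The form of the construct and its level therefore cannot be told apart in comparisons with cIDR. Mitochondrial mRNAs made up 2.16% of the counts in FL replicate 4 and 5.44% to 9.05% in the other 15 libraries. That library had the highest summed level of the members, 31392 TPM (transcripts per 1 M, scaled for length), against 24261 to 29036 TPM elsewhere. MYCN (2594 to 3411 CPM) and the adrenergic regulators PHOX2A (462 to 582 CPM) and HAND2 (542 to 850 CPM) were present throughout. Epithelial markers summed to at most 0.775 CPM and leukocyte markers to at most 1.70 CPM.

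Promoter sequence is shown for 5 members on which the comparisons below turn: the 3 complex I genes and the complex II gene with the clearest difference between batches, and COX7C, a complex IV gene that did not share it. Each is the 150 bases before the RefSeq start of the gene in GRCh38.p14, plus strand, 5′ to 3′. Capitals mark matches, on either strand, to the NRF1 motif (GCGC, any base, then TGCGC) or to the ETS motif CCGGAAG. NRF1 and the ETS factor GABP are known activators of respiratory chain genes.
NDUFA9, chr12:4648964-4649113: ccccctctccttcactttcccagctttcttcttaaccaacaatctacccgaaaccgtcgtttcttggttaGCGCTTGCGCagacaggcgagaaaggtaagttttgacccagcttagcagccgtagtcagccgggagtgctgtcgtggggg
NDUFB2, chr7:140696558-140696707: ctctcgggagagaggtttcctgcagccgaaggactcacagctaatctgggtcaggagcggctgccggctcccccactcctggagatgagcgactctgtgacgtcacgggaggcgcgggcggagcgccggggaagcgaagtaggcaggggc
NDUFS3, chr11:47578924-47579073: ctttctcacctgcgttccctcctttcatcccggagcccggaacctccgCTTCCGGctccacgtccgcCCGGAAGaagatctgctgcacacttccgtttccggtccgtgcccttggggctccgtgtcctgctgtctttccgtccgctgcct
SDHA, chr5:218170-218319: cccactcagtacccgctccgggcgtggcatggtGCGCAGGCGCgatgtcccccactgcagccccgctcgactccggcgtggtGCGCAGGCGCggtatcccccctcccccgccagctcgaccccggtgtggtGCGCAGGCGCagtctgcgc
COX7C, chr5:86617791-86617940: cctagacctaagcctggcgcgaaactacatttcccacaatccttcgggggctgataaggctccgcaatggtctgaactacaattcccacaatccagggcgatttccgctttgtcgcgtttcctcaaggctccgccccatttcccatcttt

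RefSeq promoter windows of 250 bases before to 50 after the start were found for 68 of the 84 members. The NRF1 motif, searched on both strands, was in 16 of the 68 (23.5%) and in 6.28% of all 27305 windows. By complex, it was in 6 of 35 windows of complex I, 2 of 3 of complex II, 4 of 7 of complex III, none of 9 of complex IV and 4 of 14 of complex V. The ETS motif was in 27.9% of the members' windows and 10.7% of all windows. By complex, it was in 5 of 35, 2 of 3, 3 of 7, 4 of 9 and 5 of 14 windows of complexes I to V. Of the 29 members with a window that were called lower in batch 2, described further on, 8 held the NRF1 motif, 4 the ETS motif, 8 the YY1 motif and 22 a HIF core, the last pair of motifs given next, against 8, 15, 4 and 22 of the other 39. A YY1 motif, AAGATGGC, was in 17.6% of the members' windows and 3.03% of all. The short core of the HIF site, ACGTG or GCGTG, was in 64.7% of the members' windows and also in 48.4% of all windows. Both HIF cores are short, and a match is a description of letters only.

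Among subunit genes, TPM levels averaged over the 16 libraries spanned the widest range as a ratio of highest to lowest in complex I (13.2, against 11.6 in complex III and 11.2 in complex V), and complex V spanned the most TPM. In complex I the highest was NDUFS6 at 516 ± 52.7 TPM (SD, n = 16), a subunit of the peripheral arm, and the lowest was NDUFV3 at 39.2 TPM. Complex II was the lowest and the most even: SDHC, a membrane anchor, was highest at 136 TPM, and SDHB, the iron-sulfur subunit, was lowest at 82.7 TPM. In complex III, UQCRH, the hinge protein, averaged 514 TPM and UQCRFS1, the Rieske iron-sulfur protein, 44.3 TPM. Complex IV subunits were high, from COX5B at 209 TPM to COX6A1 at 1169 TPM, with a median of 612 TPM against 206 TPM for complex I subunits. ATP5F1B, the catalytic beta subunit of ATP synthase, was the highest member at 1265 TPM, and ATP5F1E, the epsilon subunit, was the lowest subunit of complex V at 113 TPM. The tissue-restricted isoforms COX6A2, COX7A1 and COX7B2 had a count of 0 in all 16 libraries, which allows up to 3 counts in each. COX6B2 had 4 counts over all libraries. The plot of levels by complex shows 83 of the 84 members.

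**Figure D1:**
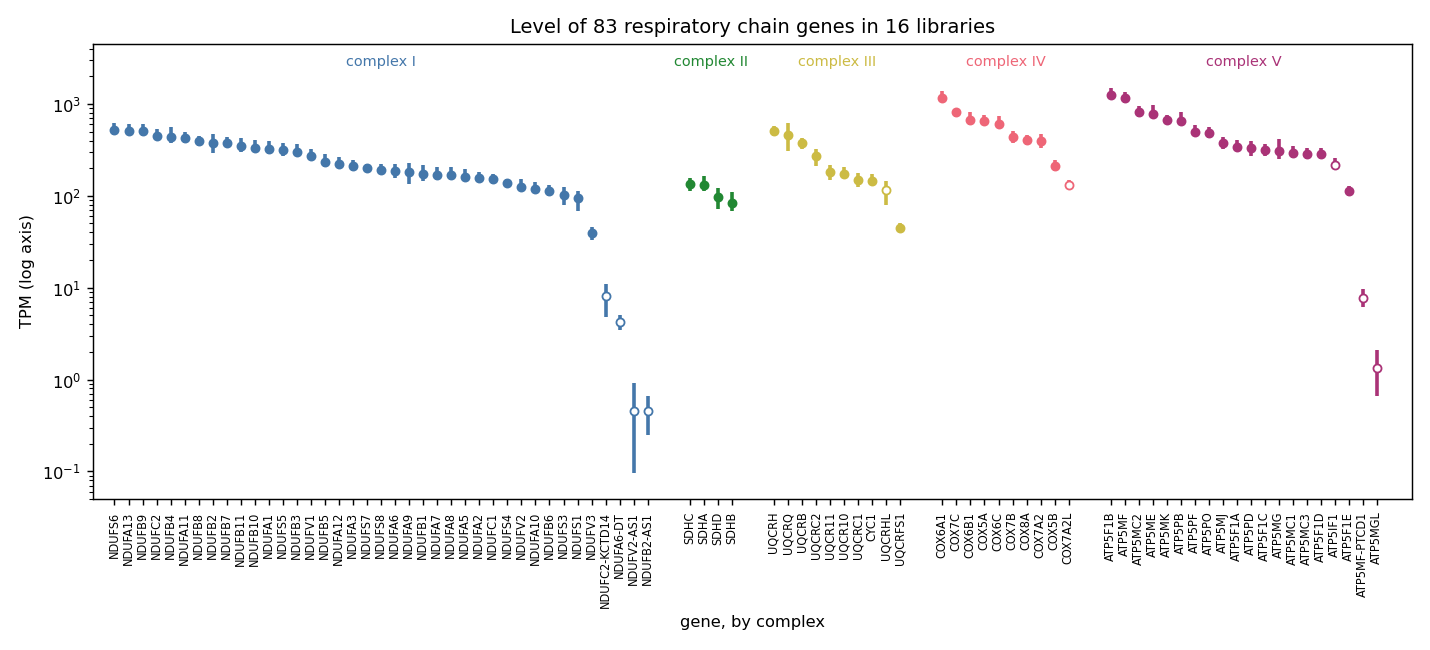
TPM of 83 members on a log axis, by complex; points are means over 16 libraries, lines run from the lowest to the highest library, and open points are the 9 members that are not subunit genes. Subunit genes lie between 39.2 and 1265 TPM, and complex II subunits lie between 82.7 and 136 TPM.

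Members varied little. Their log2 CPM had a median SD of 0.13 over the 16 libraries, against 0.25 over all 19530 tested genes. Low variation was not particular to the members. Among lists described further on, the tricarboxylic acid cycle had 0.12, assembly factors 0.14 and cytosolic ribosomal proteins 0.15. Nuclear regulators of mitochondrial biogenesis had 0.17, mitochondrial mRNAs 0.57 and the hypoxia-linked list 0.76. Of the variance of a member, batch took a median of 51.4% and group 8.50%, close to the medians of 53.8% and 7.85% over all tested genes. Most members have short transcripts: with the tested genes split by length into 4 classes of equal size, 66 of 84 were in the shortest class.

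None of the 84 members passed the test between any 2 groups; the hypoxia-linked subunit gene COX4I2 and NDUFA4L2, which are no members, did and are described further on. With batch as a term of the model, 0 of 84 members were called (edgeR's quasi-likelihood test, Benjamini-Hochberg adjusted p under 0.05) in FL, NCTAD or cIDR against WT, in NCTAD or cIDR against FL, or in cIDR against NCTAD. DESeq2 with the same terms also called 0 in each. Few genes of any kind were called: 0.102% of all tested genes in FL against WT, 0.456% in NCTAD against WT, 0.486% in cIDR against WT, 0% in NCTAD against FL, 0.0307% in cIDR against FL and 0.00512% in cIDR against NCTAD. At an unadjusted p under 0.05 the counts of members were 6, 3, 1, 2, 1 and 0 in the same order, where all tested genes gave 5.11%, 5.96%, 5.45%, 3.69%, 3.68% and 2.15%. The differences from WT use the same 4 WT libraries in all 3 comparisons.

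In each of the 3 comparisons with WT, the 95% interval of the log2 fold change lay within −0.5 and 0.5 for 75 of 75 subunit genes, each interval taken on its own. The median log2 fold change of the 84 members was 0.09 for FL, 0.03 for NCTAD and 0.04 for cIDR, against 0.01, 0.02 and 0.01 over all tested genes. The sign of the NCTAD median depended on the processing. It ran from −0.009 to 0.056 with 1 library left out and from −0.047 to 0.035 under the other alternatives. In the shortest length class the medians over all tested genes were 0.05, −0.02 and −0.002, beside 0.09, 0.03 and 0.05 for the 66 members in it. By complex, the medians in FL were 0.08 for complex I, 0.04 for complex II, 0.08 for complex III, 0.12 for complex IV and 0.10 for complex V. The medians by complex ran from 0.02 to 0.06 in NCTAD and from 0.03 to 0.06 in cIDR.

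Members with the smallest p in these comparisons are given next. NDUFA3, an accessory subunit of complex I, measured 38.6, 39.3, 36.5 and 37.7 CPM in WT replicates 1 to 4 and 51.8, 39.8, 38.3 and 42.6 CPM in FL. FL was above WT in each batch, most in batch 1, and the ranges overlapped. The log2 fold change was 0.18 ± 0.07 (SE) with an adjusted p of 0.920. NDUFS8, a core iron-sulfur subunit, had log2 fold changes of 0.14 ± 0.06 in FL, 0.15 ± 0.06 in NCTAD and 0.12 ± 0.06 in cIDR, with adjusted p of 0.920, 0.722 and 0.952. ATP5F1E differed by 0.14 ± 0.06 in FL (adjusted p = 0.920). ATP5PD, a stalk subunit of ATP synthase, differed by 0.17 ± 0.06 in NCTAD and 0.14 ± 0.06 in cIDR (adjusted p = 0.676 and 0.902). Its values were 103, 108, 85.0 and 101 CPM in WT and 120, 113, 103 and 110 CPM in NCTAD, with overlapping ranges and the lowest value in WT replicate 3.

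Between constructs, the largest difference in a subunit gene was in UQCRQ, a small subunit of complex III. FL replicates 1 to 4 held 181, 110, 115 and 153 CPM and cIDR held 111, 108, 85.1 and 126 CPM. The cIDR library was below the FL library in each batch, by little in batch 2, and the ranges overlapped. The log2 fold change of cIDR against FL was −0.36 ± 0.11 with a 95% interval from −0.59 to −0.13, and it did not pass (unadjusted p = 0.00506, adjusted p = 1.00 over all tested genes by edgeR's quasi-likelihood test). UQCRQ was the only subunit gene whose interval passed beyond −0.5 or 0.5 in any of the 6 comparisons. SDHB differed between the same groups by −0.19 ± 0.09 (adjusted p = 1.00). In NCTAD against FL, the readthrough gene ATP5MF-PTCD1 differed by 0.19 ± 0.08, ATP5MK, a small membrane subunit of ATP synthase, by −0.13 ± 0.06 and COX7B, a small subunit of complex IV, by −0.13 ± 0.07 (adjusted p = 0.996 each). ATP5MF-PTCD1 also differed from WT in NCTAD, by 0.20 ± 0.08 (adjusted p = 0.705). UQCRQ in cIDR stood −0.19 ± 0.11 from WT and −0.21 ± 0.11 from NCTAD, neither past the test (adjusted p = 0.984 and 1.00). NDUFC2-KCTD14 and NDUFA7, an accessory subunit of complex I, differed between cIDR and NCTAD by 0.34 ± 0.19 and 0.15 ± 0.08 (adjusted p = 1.00 each). In cIDR against FL, NDUFC2-KCTD14 differed by 0.40 ± 0.19 (adjusted p = 1.00).

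Within batches the median difference of the 84 members from WT did not keep one sign in FL and NCTAD. In cIDR it was above 0 in all 4 batches, by at most 0.11, but the median of the 75 subunit genes was −0.002 in batch 3. By complex, cIDR medians were below 0 for complex II in batches 2 and 3 (−0.02 and −0.03), complex III in batch 3 (−0.04) and complex V in batch 1 (−0.01). In FL, the median difference in log2 CPM of the 84 members from the WT library of the same batch was 0.26 in batch 1, −0.05 in batch 2, −0.02 in batch 3 and 0.18 in batch 4. NCTAD gave 0.21, 0.01, −0.08 and 0.02, and cIDR gave 0.02, 0.05, 0.005 and 0.11. There is 1 library of each group in a batch, so these values have no test of their own. FL stood highest in batch 1 in complex IV (0.33) and lowest there in complex II (0.05). NCTAD in batch 1 was between 0.20 and 0.26 in every complex. In batch 3 its medians were all below 0, from −0.13 in complex II to −0.07 in complex I. Leaving out FL replicate 1 took the median of FL against WT from 0.09 to 0.04, and leaving out FL replicate 4 took it to 0.05, with no member called either way.

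Genes of the cytosolic ribosome were also high in these libraries. In FL against WT their median log2 fold change was 0.10 and 80 of 80 tested genes were above 0, with none called (5 at an unadjusted p under 0.05), beside 79 of 84 members above 0. Their summed level was 192969, 188939 and 187224 TPM in FL replicates 1 and 4 and NCTAD replicate 1, the libraries with the highest sums of the members. It was as high, at 190134 TPM, in cIDR replicate 2, where the members summed to 26417 TPM. Mitochondrial mRNAs had a median of −0.17 in FL, with 12 of 13 below 0 and none called. That direction came with FL replicate 4: their share of counts was 2.16% there against 7.66% in WT of batch 4, but higher in FL than in WT in batches 1 (6.36% and 5.44%), 2 (6.53% and 5.99%) and 3 (7.79% and 6.40%). The part of these library differences in the members' medians was not tested.

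**Figure D2:**
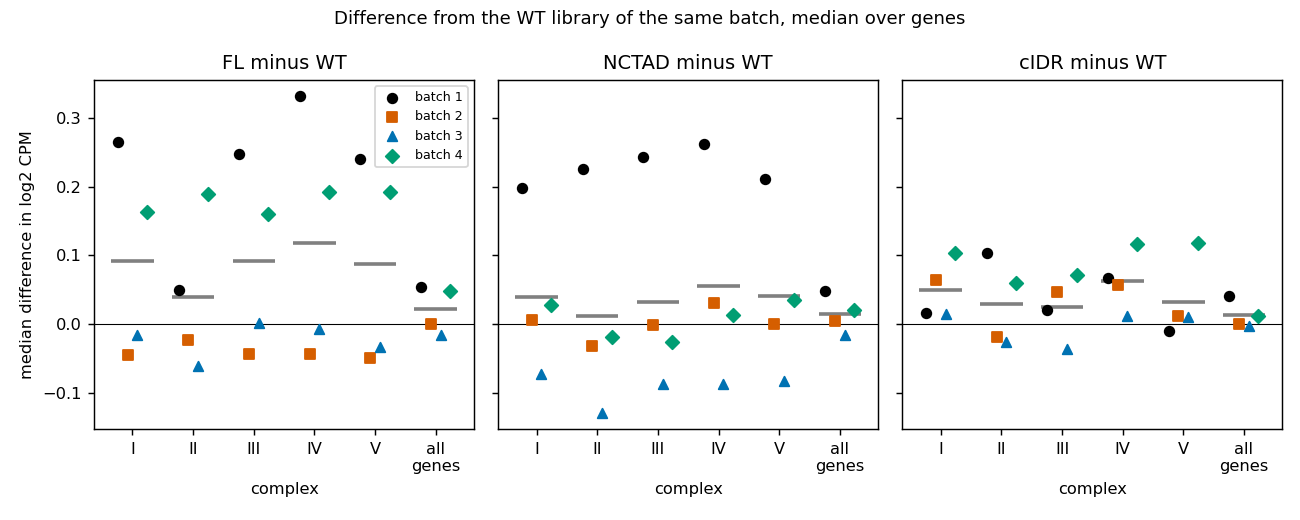
Median over genes of the difference in log2 CPM between a construct's library and the WT library of the same batch, for each complex and for all tested genes; points are batches and grey bars are means of 4 batches. FL lies at 0.26 and 0.18 over all members in batches 1 and 4 and at −0.05 and −0.02 in batches 2 and 3.

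Between batches, unlike between groups, members passed the test. Against the mean of batches 1, 3 and 4, 33 of 84 members fell in batch 2 and 1, UQCRHL, rose. Of all tested genes 26.1% were called lower and 27.7% higher in this comparison, so the members' 39.3% lower is above that share and their single rise is far below it. In the shortest length class 13.6% of all tested genes were lower and 27.4% higher, with a median log2 fold change of 0.17, beside 26 lower, 1 higher and a median of −0.08 for the 66 members in it. No member reached a log2 fold change of 0.5 in size with an adjusted p under 0.05, as 22.9% of all tested genes did. Batch 2 is 1 batch of 4 libraries, so the test measures the spread between libraries after group and not the spread between batches. The split depends on scaling: library totals in place of TMM gave 16 members lower and 9 higher, with higher calls over all genes moving from 51.5% to 62.4% of the calls. The members' share of lower calls was then 19.0%, beside 20.1% of all tested genes, so it was no longer above the background. Log2 TPM tested with limma gave 19 lower (22.6%, beside 15.4% of all tested genes) and 5 higher. Without FL replicate 2, 18 members were called lower (21.4%), which was also not above the 23.8% of all tested genes.

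Complex I held most of the falls. There 22 of 40 members were lower and none higher, with a median log2 fold change of −0.14 against 0.03 over all tested genes. Of all tested genes 26.1% were lower, and of those in the shortest length class 13.6%. NDUFA9, an accessory subunit near the quinone site, measured 98.2, 104 and 100 CPM in WT in batches 1, 3 and 4 and 78.9 CPM in batch 2. In FL, NCTAD and cIDR, batch 2 gave 74.7, 74.8 and 73.3 CPM where the other batches ranged from 91.8 to 118 CPM. All 4 batch 2 libraries were below the other 12. NDUFA9 fell by 0.47 ± 0.05 on the log2 scale, or 27.9%, with an adjusted p of 4.5e-06. NDUFS3, a core subunit of the peripheral arm, measured 44.3, 42.2, 42.2 and 46.6 CPM in the batch 2 libraries of WT, FL, NCTAD and cIDR and 53.2 to 71.2 CPM in the others. It fell by 0.44 ± 0.06 (adjusted p = 3.8e-05). NDUFB2, a membrane-arm subunit, measured 68.0, 62.8, 66.7 and 68.3 CPM in batch 2 and 80.4 to 110 CPM elsewhere, and fell by 0.43 ± 0.06 (adjusted p = 2.1e-05). Neither gene's batch 2 values overlapped the rest.

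The falls in complex I included core and accessory subunits. Of the 7 core subunits 5 fell: NDUFS3, NDUFS7, NDUFS8, NDUFS1 and NDUFV2. Among the 29 supernumerary subunits 17 fell, and the medians were −0.17 and −0.15. Both counts are to be read beside the 26.1% of all tested genes called lower.

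In complex II, 2 of 4 genes fell, where 26.1% of all tested genes did. With so few genes the count is not read as above that share. SDHA, the flavoprotein that oxidises succinate, measured 155, 157, 149 and 153 CPM in batch 2 in WT, FL, NCTAD and cIDR, and 174 to 206 CPM in the other 12 libraries, without overlap. It fell by 0.28 ± 0.04 (adjusted p = 5.1e-05). SDHB fell by 0.21 ± 0.07 (adjusted p = 0.0269), from values that overlapped: 42.0 to 44.9 CPM in batch 2 and 41.9 to 62.9 CPM in the others. With library totals SDHB no longer passed (adjusted p = 0.135). Against batch 3 alone its log2 fold change was −0.07 (adjusted p = 0.572). SDHD, a membrane anchor, was 0.17 ± 0.07 lower without passing the test (adjusted p = 0.0524). With batch as the only term it passed (adjusted p = 0.0372). SDHC stood at 98.7 to 103 CPM in batch 2 and 90.3 to 109 CPM elsewhere, with a log2 fold change of 0.04.

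In complex III, 4 of 10 members fell, where 26.1% of all tested genes did. A count this small is not read as above that share. UQCRC1, a core protein, measured 120 to 127 CPM in batch 2 and 132 to 183 CPM elsewhere, and fell by 0.27 ± 0.06 (adjusted p = 0.00156). CYC1, which carries the cytochrome c1 heme, measured 91.4 to 98.1 CPM in batch 2 and 102 to 128 CPM elsewhere, and fell by 0.25 ± 0.05 (adjusted p = 0.00123). Both were separate from the other batches in all 4 groups. UQCR10 and UQCRFS1 also fell, by 0.15 and 0.13. UQCRHL, a near copy of UQCRH, rose by 0.25 ± 0.09 (adjusted p = 0.0268), from 10.9 to 18.1 CPM in the other batches to 15.3 to 18.5 CPM, with overlap. UQCRH itself did not pass the test.

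In complex IV none of 10 members passed edgeR's test in batch 2, and 1, COX7C, had an unadjusted p under 0.05. Over all genes 26.1% were called lower and 27.7% higher. COX7C, a small subunit, measured 257, 245, 259 and 265 CPM in batch 2 and 212 to 289 CPM in the other libraries, which overlapped. Its log2 fold change was 0.12 ± 0.05 (adjusted p = 0.0582). It passed with batch as the only term of the model (adjusted p = 0.0485) and with library totals (adjusted p = 0.00415). COX7A2 differed by 0.09 ± 0.06 and COX7B by −0.08 ± 0.06, neither past the test (adjusted p = 0.258 and 0.271). The median of complex IV was −0.04. Only medians of complexes I and II stayed below 0 under every scaling tried: those of complexes III, IV and V, −0.04, −0.04 and −0.07 as given here, became 0.03, 0.03 and 0.002 with library totals, and those of complexes III and IV became 0.03 and 0.02 on log2 TPM. With 1 library left out, the medians of complexes III, IV and V reached at most 0.01, −0.004 and −0.02.

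Complex V had 5 of 20 members lower and none higher, where 26.1% of all tested genes and 13.6% of those in the shortest length class were lower. ATP5IF1, which blocks ATP hydrolysis by the enzyme, measured 53.2 to 57.4 CPM in batch 2 and 61.9 to 76.6 CPM elsewhere, and fell by 0.27 ± 0.04 (adjusted p = 1.4e-04). ATP5MC1, one of the genes for the c-ring subunit, fell by 0.26 ± 0.05 (adjusted p = 3.8e-04), and ATP5PB, the peripheral stalk subunit b, by 0.22 ± 0.05 (adjusted p = 9.9e-04). ATP5F1D and ATP5F1A, the delta and alpha subunits, fell by 0.16 and 0.15. ATP5F1B, the most abundant member, did not pass. Counted over all complexes, 14 of 84 members had all 4 batch 2 libraries below the other 12, where 14.6% of all tested genes did.

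**Figure D3:**
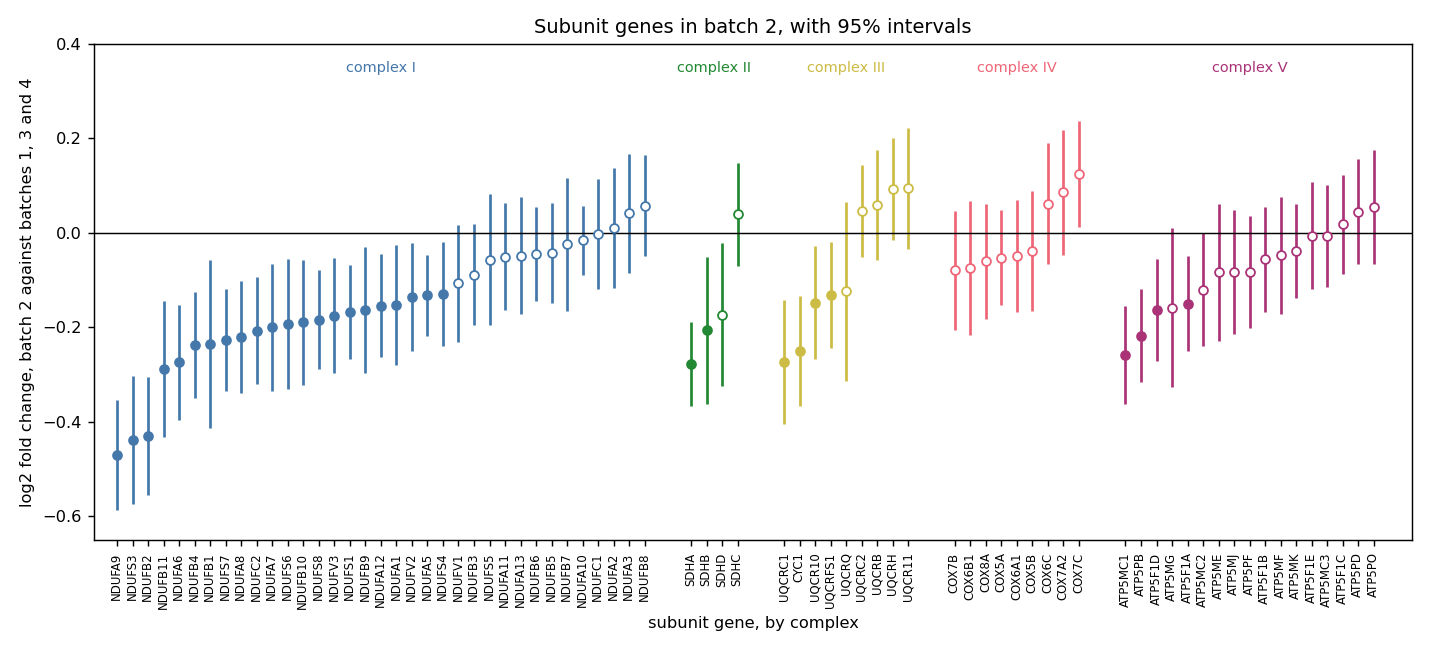
Log2 fold change of 74 subunit genes in batch 2 against batches 1, 3 and 4, by complex, with 95% intervals; filled points have an adjusted p under 0.05. NDUFA9, NDUFS3 and NDUFB2 lie at −0.47, −0.44 and −0.43, and no point of complex IV is filled.

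Set against single batches, the difference was uneven. Batch 2 against batch 1 gave 42 members lower and none higher, with a median of −0.18 (background 23.5% lower, 22.3% higher). Against batch 4 it gave 19 lower and none higher, with a median of −0.06 (22.7% lower, 22.8% higher). Against batch 3 it gave 11 lower and 6 higher, with a median of 0.01 (23.3% lower, 23.8% higher). So the lower median of the members in batch 2 did not hold against batch 3. Complex I kept a median below 0 in all 3 comparisons, −0.22, −0.14 and −0.08 against batches 1, 4 and 3, and complex II did so with −0.22, −0.20 and −0.12. Complex IV stood at −0.15, 0.00 and 0.05. The members called lower than each of the 3 batches in turn were 10: NDUFA6, NDUFA9, NDUFB2, NDUFB4, NDUFS3, SDHA, CYC1, UQCRC1, ATP5IF1 and ATP5MC1. That is 11.9% of the members, where 16.4% of all tested genes met the same requirement.

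In batch 1, 44 of 84 members were higher and none lower against the mean of the other batches, with a median of 0.16 (background 14.9% higher, 9.77% lower). In the shortest length class 15.1% of all tested genes were higher, with a median of 0.05. The difference came mostly with FL and NCTAD: within groups the members' median difference of batch 1 was 0.30 in FL and 0.29 in NCTAD but 0.06 in WT and 0.03 in cIDR. Of complex IV 7 of 10 members were higher, of complex III 6 of 10, of complex V 11 of 20, of complex I 18 of 40 and of complex II 2 of 4. That count fell to 19 without NCTAD replicate 1, to 21 with library totals and to 10 on log2 TPM. Batch 3 had 7 members lower (background 8.31%), among them COX7A2, COX7C, UQCRQ, UQCRH and UQCR11. Batch 4 had 1 member higher, NDUFA9 (background 6.57%). The heat map shows both features, the high FL and NCTAD libraries of batch 1 and the low NDUFA9, NDUFS3 and NDUFB2 of batch 2.

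**Figure D4:**
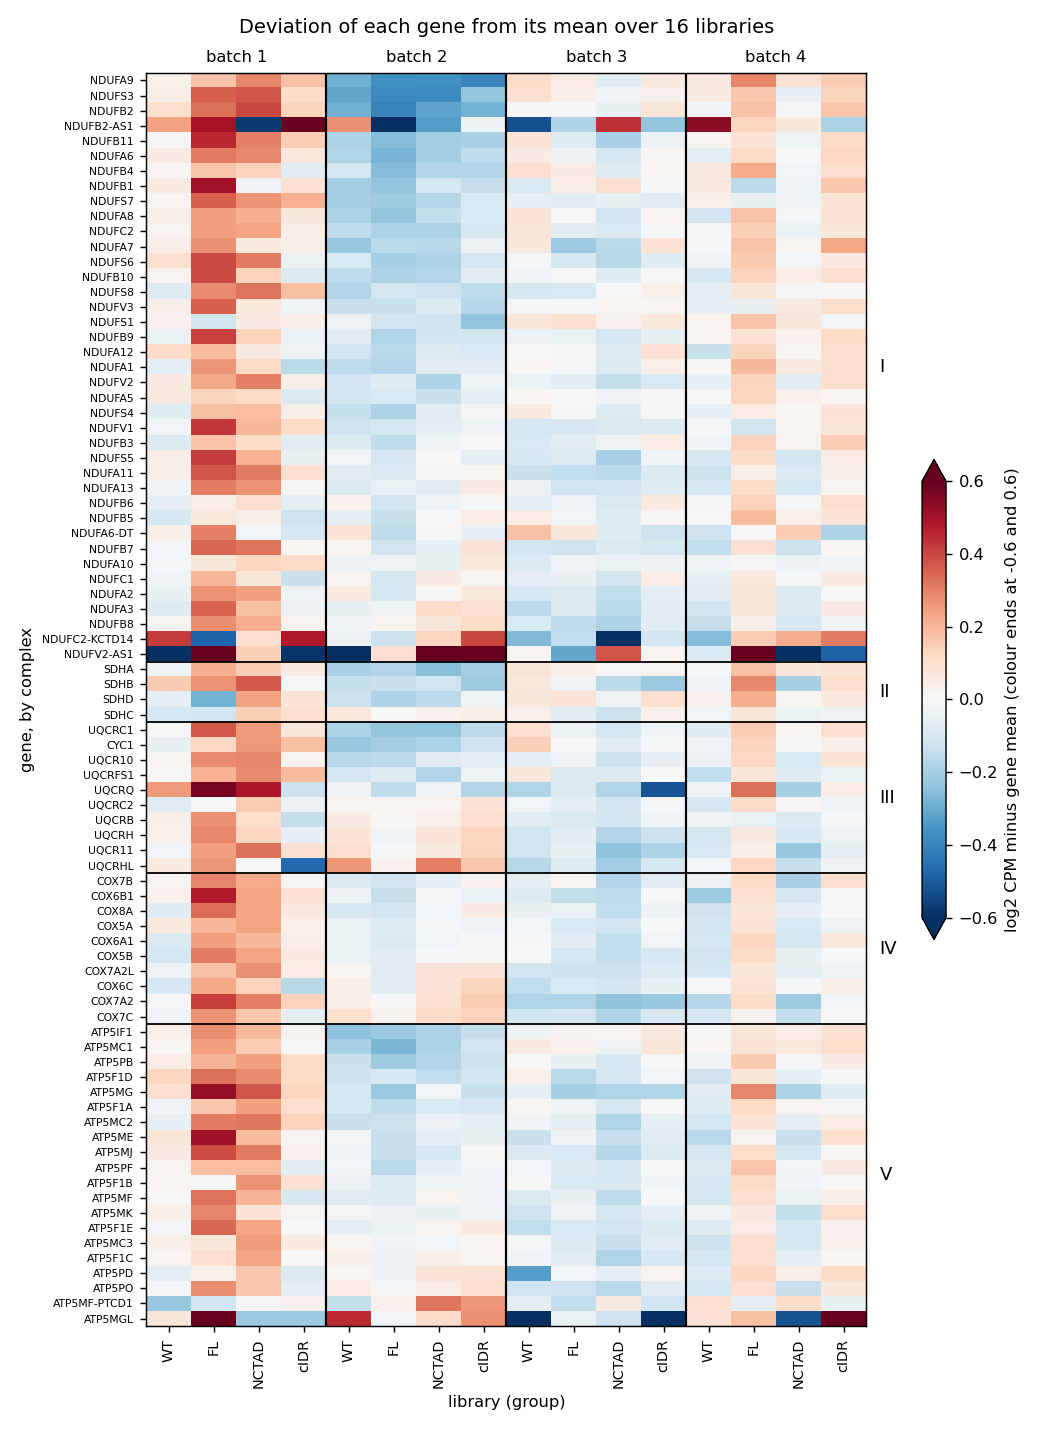
Log2 CPM of each of 83 members minus its mean over 16 libraries, libraries in columns by batch and genes in rows by complex, ordered within a complex by the batch 2 log2 fold change. NDUFA9, NDUFS3 and NDUFB2 are low in all 4 libraries of batch 2, and most rows are high in the FL and NCTAD libraries of batch 1.

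The effect of the constructs was not shown to differ in batch 2. An interaction term for transfected against WT cells, batch 2 against the other batches, called 0 of 84 members and 0.00512% of all tested genes, with 1 member at an unadjusted p under 0.05 (1.56% of all tested genes). The median interaction of the members was −0.07. It leans on a single WT library of batch 2. EPAS1 in batch 2 was 1320 CPM in NCTAD and 2189 CPM in cIDR. Their libraries of other batches held 2203 to 4228 and 4078 to 5852 CPM. In FL the batch 2 library lay within the 1691 to 3580 CPM of the others. The interaction thus also compares unequal levels of the construct. Within groups, the median batch 2 difference of the members was −0.03 for WT, −0.23 for FL, −0.06 for NCTAD and −0.04 for cIDR. The same medians in complex II were close together, between −0.25 and −0.14.

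Genes of the pathway outside the members are described by their counts in batch 2, to be read beside the 26.1% of all tested genes called lower and the 27.7% called higher. Of 13 tricarboxylic acid cycle genes, which supply NADH and succinate, 9 fell and none rose, with a median of −0.19. Of 14 nuclear regulators of mitochondrial biogenesis 7 fell and 3 rose, with a median of −0.20. GABPB1, a subunit of the ETS factor GABP, fell by 0.50 ± 0.04 and NRF1 by 0.41 ± 0.05. TFAM, which packages mitochondrial DNA and helps start its transcription, fell by 0.39 ± 0.06. TFB1M rose by 0.32 ± 0.05. Of 47 assembly factors 20 fell and 6 rose, with a median of −0.09. NDUFAF6, needed to assemble complex I, fell by 0.66 ± 0.06, and SDHAF4, which helps assemble complex II, rose by 0.92 ± 0.08. Of 80 cytosolic ribosomal protein genes 26 rose and 1 fell, with a median of 0.09. The rises among the regulators and the ribosomal proteins are near the share of all tested genes. Mitochondrial mRNAs had none of 13 called by edgeR's test, with 1 at an unadjusted p under 0.05.

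Hypoxia-linked genes stood high in batch 2, in WT cells too. Of a list of 12 such genes 10 rose and 1 fell, with a median of 1.56. The list holds NDUFA4L2, COX4I2, LONP1, HIGD1A, PDK1, BNIP3, BNIP3L and ISCU. It also holds EGLN3, CA9, VEGFA and ADM, which are not respiratory chain genes, so its counts do not describe the respiratory chain alone. NDUFA4L2 measured 0.104, 63.4, 0.531 and 0.549 CPM in WT replicates 1 to 4 and 0.849, 75.8, 0.860 and 1.02 CPM in those of FL. It measured 1.81, 75.5, 1.95 and 1.59 CPM in NCTAD and 16.8, 143, 9.23 and 8.02 CPM in cIDR. The batch 2 library was the highest of each group. Outside batch 2 every cIDR library was above every other library. Mean EPAS1 was also highest in cIDR there (5249 CPM, against 2812 CPM in FL and 3362 CPM in NCTAD). Form and level of the construct cannot be told apart. COX4I2 measured 0.355, 3.05, 0.121 and 0.220 CPM in WT and 4.17, 9.08, 2.22 and 2.33 CPM in cIDR, with the highest value again in batch 2. With batch in the model, NDUFA4L2 was higher in cIDR than in WT by 3.13 ± 0.51 on the log2 scale (adjusted p = 0.00953) and COX4I2 by 2.76 ± 0.37 (adjusted p = 0.00162). In NCTAD, COX4I2 was higher by 2.29 ± 0.37 (adjusted p = 0.00886), and NDUFA4L2 differed by 0.84 ± 0.52 (adjusted p = 0.952). In FL outside batch 2, COX4I2 averaged 0.88 CPM and NDUFA4L2 0.91 CPM, beside 0.23 and 0.39 CPM in WT. Neither gene was called in FL against WT. Of their usual counterparts, COX4I1 measured 341 to 482 CPM and NDUFA4 206 to 263 CPM, with neither called against WT nor in batch 2.

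PDK1, a kinase that inhibits pyruvate dehydrogenase and so the supply of acetyl-CoA from pyruvate to the tricarboxylic acid cycle, rose by 2.81 ± 0.08 in batch 2 and by 0.64 ± 0.12 in cIDR against WT (adjusted p = 4.7e-12 and 0.0279). BNIP3, a mitophagy receptor, measured 191 to 298 CPM in batch 2 and 63.5 to 75.9 CPM in the other libraries. ISCU, the iron-sulfur scaffold, was the 1 gene of the list that fell, by 0.18 ± 0.04. Across the constructs this list gave 0 of 12 genes called in FL (4 at an unadjusted p under 0.05), 4 in NCTAD and 6 in cIDR, all higher, beside 0 of 84 members. Fibroblast markers were also higher in batch 2, with 4 of 4 tested markers called and a summed level of 191 to 203 CPM against 91.8 to 136 CPM. COL1A2, a defining marker, was at or near 0 in all libraries (at most 0.0724 CPM). The part of any of these in the members' batch 2 difference was not tested, and whatever else set batch 2 apart cannot be told apart from the batch.

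**Figure D5:**
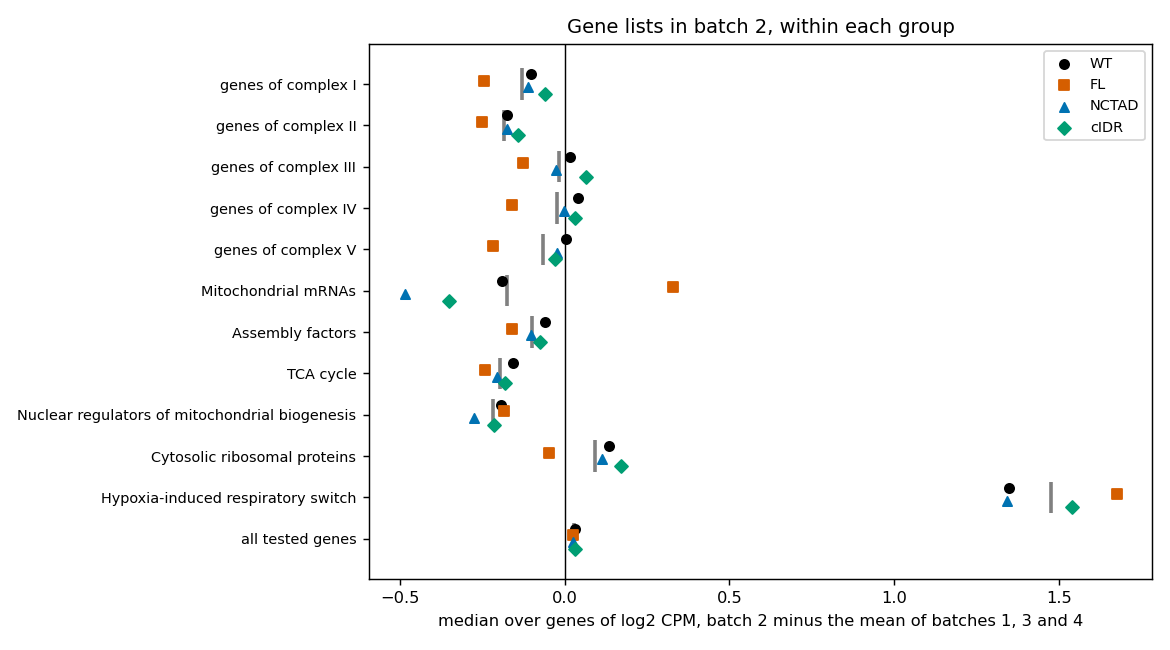
Median over genes of log2 CPM in the batch 2 library minus the mean of batches 1, 3 and 4, within each group, for the 5 complexes and the gene lists; grey bars are means of 4 groups. The hypoxia list lies between 1.34 and 1.67, complex I between −0.25 and −0.06, and complex II between −0.25 and −0.14.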

How the data were processed

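Per the submitters' processing notes, the authors used fastp, STAR, Salmon and featureCounts with build GRCh38. The versions, annotation and settings are not given in the sources used here. The authors deposited estimated counts per gene and TPM for 16 libraries, and both tables carry the name of Salmon. Column names differ from the sample titles: FL appears there as WT, WT as CTRL and N-CTAD as NTAD, and the line as BE2c where the titles have SK-N-BE(2). Groups and the name of the line follow the titles. Counts were rounded (15.5% were not whole). Genes were kept with filterByExpr by group, which left 19530, and fitted with edgeR 4.0.16 (R 4.3.3) by its quasi-likelihood test, with TMM scaling and terms for group and batch. P-values were adjusted by Benjamini-Hochberg over all tested genes and called under 0.05. Every p printed is from that test unless another tool is named. SE is the log2 fold change over the root of F. Log2 CPM used a prior count of 2. Batch is the replicate number of the labels. Deviations from group means correlated at a mean r of 0.308 between libraries of a batch (lowest 0.0674) and −0.0945 between batches. Replicates were no copies of each other: chi-square per degree of freedom was at least 6.96. A count of 0 allows 3, for counting error only.

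The members and lists were chosen with earlier results of these data known. Named genes followed a rule: in each comparison the 3 members with the smallest p, in each complex the 3 with the smallest adjusted p in batch 2 and any called member of opposite sign, the highest and lowest level of each complex, and the SDH genes. GABPB1, NRF1, TFAM, TFB1M, NDUFAF6, SDHAF4, PDK1, BNIP3 and ISCU, and the further members named in counts, were chosen after their values were seen. Promoters are from RefSeq (GRCh38.p14). The fit was tested on simulated data. Alternatives were no batch term, other size factors, DESeq2 1.42.0, other filters, limma 3.58.1 on log2(TPM + 1) and log2(TPM + 0.1), single batches and each library left out. Figures used matplotlib in Python. All members entered the fits and counts; 1 of them is not reported here by itself and is not drawn.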

Additional observations from a re-analysis of the deposited data

Results flagged for a closer look

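Of 155 groups of 4 values looked at, 6 held a value apart from the other 3 by Dixon's criterion. Chance flags about 1 in 20 independent groups. These groups share libraries and many of their genes were picked for a small p, so 6 of 155 cannot be set against that share. In the WT group, NDUFS3 measured 44.3 CPM in replicate 2 and 56.3 to 58.7 CPM in the others. In NCTAD, SDHB measured 62.9 CPM in replicate 1 and 42.4 to 44.9 CPM in the others. The median difference of complex II between cIDR and FL was −0.13 in batch 4 and 0.002 to 0.03 in the other batches. For complex III, cIDR minus NCTAD gave −0.21 in batch 1 and 0.06 to 0.08 elsewhere. For complex V, cIDR minus WT gave 0.12 in batch 4 and −0.01 to 0.01 elsewhere. The batch 2 difference of complex V was −0.22 in FL and −0.03 to 0.003 in the other groups.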

How the results depend on the processing

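In all 6 comparisons between groups the count of members called stayed at 0, higher and lower, under each of the 25 alternatives, the fit with no replicate block among them, and the interaction stayed at 0 under 22. Without the replicate block (for batch comparisons, batch as the only term), batch 2 gave 34 members lower (33 shared with the fit with the block) and 2 higher. With library totals, batch 2 gave 16 lower and 9 higher, batch 1 gave 21 higher, batch 4 gave 2 higher, and the members' median for cIDR against WT was −0.0049. On log2(TPM + 1) and log2(TPM + 0.1), batch 2 gave 19 lower and 5 higher by either, batch 1 gave 10 and 9 higher and 1 lower, batch 3 gave 2 lower, the median for cIDR against WT was −0.0256 and −0.0257, and COX7B in batch 2 turned to 0.0274 by either. DESeq2 gave 11 lower in batch 3 and 2 higher in batch 4, and a minimum of 10 counts in every library gave 4 higher in batch 2. Against single batches, batch 2 gave 42, 11 and 19 lower and 0, 6 and 0 higher than batches 1, 3 and 4. The median was −0.18 against batch 1 and 0.0106 against batch 3, COX7A2 turned to −0.15 against batch 1 and COX7B to 0.0124 against batch 3. With a minimum log2 fold change of 0.5, batch 2 gave 0 lower and 0 higher. Leaving out 1 library gave 18 (without FL replicate 2) to 35 lower and 0 to 4 higher in batch 2, 19 (without NCTAD replicate 1) to 56 higher in batch 1, 0 (without FL replicate 3) to 15 lower in batch 3, 0 (without FL replicate 4) to 3 higher in batch 4, and medians of 0.0151 to 0.0901 for cIDR against WT. The cause of these shifts was not tested. The calls of SDHB and UQCRHL were lost in 8 and 7 of 27 alternatives, and SDHD and COX7C passed in 9 each. NDUFA9, NDUFB2, NDUFS3, SDHA, CYC1, UQCRC1, ATP5IF1 and ATP5MC1 kept their call in all 27.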
